A study of Mus musculus with 8 samples.

Results

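Voltage-gated sodium channels were followed through 7 of their subunit genes in ribosome-associated mRNA from pulldowns aimed at mouse PV+ interneurons. The members were chosen by gene symbol alone, as 7 of the 45706 genes in the count and TPM tables: 4 genes for pore-forming subunits (*Scn1a*, *Scn2a*, *Scn3a* and *Scn8a*) and 3 for auxiliary subunits (*Scn2b*, *Scn3b* and *Scn4b*). *Scn2a* is listed under its older symbol *Scn2a1*, and the other 6 matched by exact name. All 7 passed the filter on low counts, which left 17495 genes for testing. None of the 7 was called changed after 48 h of CNO, where 0% of all genes tested were called, and *Scn1a* was the most abundant of them, per transcript length, in 7 of the 8 samples.

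A sodium channel consists of 1 large pore-forming subunit, which opens on depolarization and closes again through its own inactivation gate, and of small auxiliary subunits that set its gating and anchor it in the membrane. These channels start the action potential at the axon initial segment and carry it along the axon. Fast-spiking PV+ interneurons depend on rapid recovery of their channels from inactivation, and loss of 1 copy of *Scn1a* impairs their firing in Dravet syndrome.

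The samples were 4 pulldowns from mice treated with CNO (clozapine-N-oxide) and 4 from mice given vehicle (VEH), each pooled from the somatosensory cortex of 4 brains. All mice were *Pvalb* Flp/+;*Neurod6* Cre/+ and carried the same virus, infected at postnatal day 1. It expressed the HA-tagged ribosomal protein RPL10A and the activating receptor hM3Dq from the hSyn promoter, in cells with Flp (PV+ cells) and without Cre (which marks pyramidal cells). CNO-treated mice received 1 mg/kg of CNO, which acts on hM3Dq, in 5 injections over 48 h, and vehicle-treated mice the vehicle on the same schedule, at postnatal days 42 to 70. Because both groups carried hM3Dq and none received CNO without it, an effect of CNO through hM3Dq and any other effect of CNO cannot be told apart. The labels give 4 replicates per group and do not name the animals, so p-values measure the spread between these pools.

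The 4 pore-forming genes are close relatives, and 3 of them lie within 983.7 kb of chromosome 2, so their positions and the sequence they share are given first. In GRCm38, *Scn1a* (ENSMUSG00000064329) spans chr2:66270778-66440840 on the minus strand, *Scn2a* (ENSMUSG00000075318) chr2:65620771-65767447 on the plus strand and *Scn3a* (ENSMUSG00000057182) chr2:65457118-65567627 on the minus strand. *Scn8a* (ENSMUSG00000023033) lies apart at chr15:100869858-101045938 on the plus strand. The auxiliary genes share chromosome 9 and the plus strand: *Scn2b* (ENSMUSG00000070304) at chr9:45117782-45130070, *Scn4b* (ENSMUSG00000046480) next to it at chr9:45138395-45154152 and *Scn3b* (ENSMUSG00000049281) at chr9:40269217-40291618. No member shares exon bases with another annotated gene.

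Over the whole coding sequence, aligned bases were 82.8% identical between *Scn1a* and *Scn2a*, 81.4% between *Scn1a* and *Scn3a*, and 83.7% between *Scn2a* and *Scn3a*, against 73.4% to 73.8% between *Scn8a* and any of them. Stretches of 31 bases found in transcripts of another gene made up 7.29% of *Scn1a*, 9.16% of *Scn2a* and 9.57% of *Scn3a*, most of them shared within this trio. The corresponding values were 0.490% for *Scn8a*, 2.20% for *Scn2b*, 0.269% for *Scn3b* and 0% for *Scn4b*. The estimated counts of the chromosome 2 trio therefore rest in a small part on how shared reads were divided among them, and how far that affects their values was not tested.

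The libraries held between 44064161 and 49413273 counts, so 3 counts, the upper limit that a count of 0 allows, equalled 0.0607 to 0.0681 CPM (counts scaled by library size). *Fos*, an immediate early gene used as the check of activation, lay between 32.2 and 69.5 CPM with CNO and between 11.3 and 15.8 with vehicle, without overlap. All 10 PV+ interneuron markers were detected, as were all 10 pyramidal cell markers, 8 markers of other interneurons and 24 of astrocytes, oligodendrocytes, microglia and vessels, and no marker was at 0 in all samples. In TPM (a level divided by transcript length), the PV+ markers summed to 2578 to 3995 with CNO and to 1202 to 3187 with vehicle, and the pyramidal markers to 1393 to 1921 and to 1578 to 2238. Vehicle replicate 1 stood apart, with a mean PV+ marker level of 5.69 log2 CPM against 7.02 to 7.23 in the other vehicle samples, and *Pvalb* at 99.7 CPM against 329 to 390. Results are therefore also given without it. A marker index, the mean log2 CPM of PV+ markers minus that of pyramidal markers, was 1.56, 0.81, 1.32 and 1.95 in CNO replicates 1 to 4 and -0.42, 0.98, 1.38 and 1.25 in vehicle replicates 1 to 4. In such pooled samples, fewer cells of a type and less RNA per cell cannot be told apart.

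Levels were compared between genes in TPM. They are levels in the whole pulldown, in which markers of pyramidal and other cells were detected too. How much of each member came from cells other than PV+ interneurons was not tested. *Scn1a*, which encodes Nav1.1, was the most abundant member, at a mean of 77.8 TPM over the 8 samples (range 68.2 to 82.8), above 85.6% of the genes tested. *Scn8a*, for Nav1.6, the main channel of mature axon initial segments and nodes, followed at 53.9 (46.5 to 63.5). *Scn2a*, for Nav1.2, best known from axons of excitatory neurons, had 50.8 (31.5 to 74.8), and *Scn4b*, whose product takes part in resurgent sodium current, 46.1 (29.0 to 60.5). *Scn2b*, for an auxiliary subunit bound to the channel by a disulfide bond, had 19.9 (16.9 to 23.4), and *Scn3b*, for one held without such a bond, 19.3 (15.0 to 22.9). *Scn3a*, for Nav1.3, which prevails in the embryonic brain, was lowest at 6.44 TPM (3.90 to 9.86), above 38.1% of the genes tested.

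**Figure D1:**
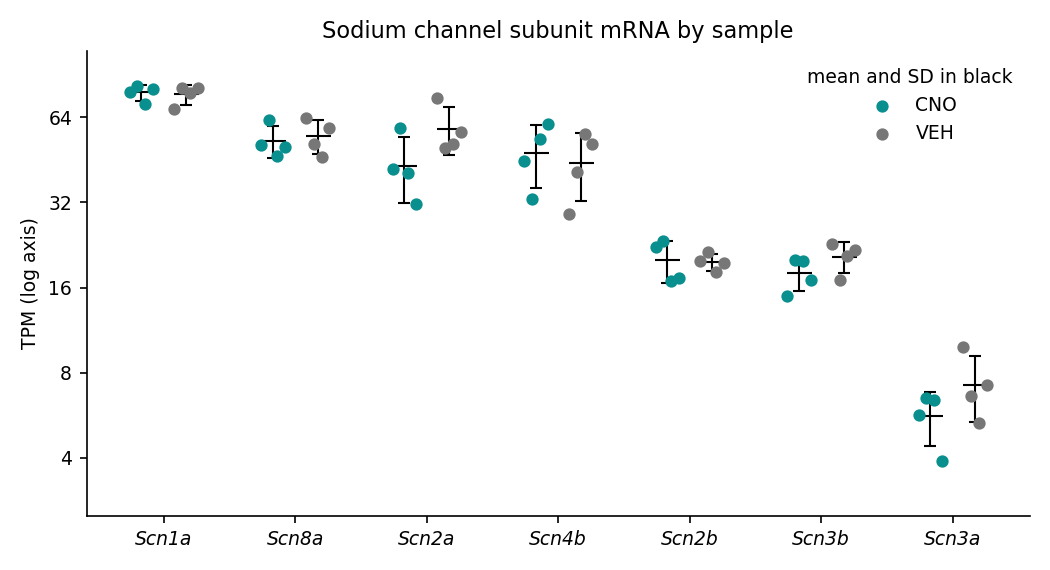
Level of each subunit in TPM (vertical log axis), with 4 CNO samples in teal and 4 vehicle samples in grey, drawn from replicate 1 to 4 from left to right, and the mean ± SD of each group in black. *Scn1a* sits highest in both groups and *Scn3a* lowest, and the groups overlap for every gene.

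Neighbours in this order were compared within each sample by two-sided exact sign-flip tests, adjusted over the 6 pairs. *Scn1a* exceeded *Scn8a* in 8 of 8 samples, by 0.53 ± 0.21 (SD, n = 8) on the log2 TPM scale (exact p = 0.00781, adjusted p = 0.0156). *Scn4b* exceeded *Scn2b* by 1.18 ± 0.51, and *Scn3b* exceeded *Scn3a* by 1.60 ± 0.30, each in 8 of 8 samples (exact p = 0.00781, adjusted p = 0.0156). The other 3 neighbour pairs did not differ beyond their spread. *Scn8a* was above *Scn2a* in 6 of 8 samples (log2 difference 0.12 ± 0.28, exact p = 0.289, adjusted p = 0.434), *Scn2a* above *Scn4b* in 4 (0.13 ± 0.71, exact p = 0.625, adjusted p = 0.695) and *Scn2b* above *Scn3b* in 4 (0.045 ± 0.30, exact p = 0.695, adjusted p = 0.695). Vehicle replicate 1 was the only sample in which *Scn2a*, at 74.8 TPM, exceeded *Scn1a*, at 68.2 TPM. In the remaining 7 samples *Scn1a* led.

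Whether the subunits change with 48 h of activation was asked gene by gene, from counts. Values per sample are CPM in the order of replicates 1 to 4, and fold changes are log2 of CNO over vehicle from edgeR's quasi-likelihood test with Benjamini-Hochberg adjustment over all genes tested. *Scn1a* was measured at 179, 148, 164 and 190 CPM with CNO and at 123, 154, 170 and 176 with vehicle. The lowest value was vehicle replicate 1, and the groups overlapped. The log2 fold change was 0.13 ± 0.13 (SE, 95% interval -0.16 to 0.42, adjusted p = 0.822), and 0.023 without vehicle replicate 1.

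*Scn2a* had 88.3, 115, 104 and 76.3 CPM with CNO and 123, 93.6, 115 and 132 with vehicle. CNO replicates 1 and 4 lay below all vehicle samples, while the other CNO samples fell within their range. Its log2 fold change, -0.27 ± 0.15 (SE, 95% interval -0.59 to 0.053), had the largest size among the 7 and did not pass the test (unadjusted p = 0.0933, adjusted p = 0.817). Without vehicle replicate 1 it was -0.24. In TPM the values were 42.1, 58.5, 40.7 and 31.5 with CNO against 74.8, 49.9, 51.7 and 56.9 with vehicle, again overlapping. Counts divided by TPM, which gives the effective length the authors' quantification assigned to a gene, ranged for *Scn2a* from 0.845 to 1.16 of its mean over the samples, and the range for *Scn8a* was 0.856 to 1.13. With this length as an offset, a choice made after seeing the data, *Scn2a* had a log2 fold change of -0.36 (unadjusted p = 0.0422, adjusted p = 0.812). The planned limma test of log2 TPM gave -0.44 with 1 added (unadjusted p = 0.0365, adjusted p = 0.749). With 0.1 added it gave -0.45 (unadjusted p = 0.0364, adjusted p = 0.747). All 20 alternatives kept the direction, from -0.45 to -0.18.

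*Scn3a* had 21.6, 23.5, 23.1 and 15.9 CPM under CNO and 30.1, 23.3, 20.5 and 25.5 under vehicle. CNO replicate 4 was lowest and vehicle replicate 1 highest of all 8, and the remaining 6 samples intermingled. The log2 fold change was -0.24 ± 0.15 (SE, 95% interval -0.57 to 0.090, adjusted p = 0.817). It moved to -0.14 without vehicle replicate 1.

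*Scn8a* varied least in CPM, at 154, 167, 154 and 163 CPM with CNO and 144, 138, 156 and 171 with vehicle. Its CNO values lay entirely inside the range of the vehicle values. The log2 fold change of 0.067 ± 0.098 (SE, 95% interval -0.15 to 0.28, adjusted p = 0.862) was the closest to 0 of the 7. It moved to 0.038 without vehicle replicate 1 and to 0.013 without vehicle replicate 2, and it turned to -0.060 when log2 TPM was tested instead of counts.

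Among the auxiliary genes, *Scn2b* had 41.0, 39.4, 31.5 and 33.2 CPM with CNO and 32.4, 37.3, 33.0 and 34.3 with vehicle. CNO replicates 1 and 2 were above every vehicle sample and CNO replicate 3 below every one. The log2 fold change was 0.083 ± 0.11 (SE, 95% interval -0.15 to 0.32, adjusted p = 0.841), and 0.052 without vehicle replicate 1.

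*Scn3b* had 20.0, 24.5, 29.1 and 25.5 CPM with CNO and 27.3, 22.4, 29.4 and 31.7 with vehicle. Only CNO replicate 1 lay outside the vehicle range, below it. The log2 fold change was -0.16 ± 0.14 (SE, 95% interval -0.46 to 0.14, adjusted p = 0.817), and -0.17 without vehicle replicate 1.

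*Scn4b* spread most widely, with 102, 69.1, 122 and 143 CPM under CNO and 59.0, 88.0, 125 and 110 under vehicle. Low values occurred in both groups, in vehicle replicate 1 and CNO replicate 2, and CNO replicate 4 was highest. The log2 fold change was 0.19 ± 0.25 (SE, 95% interval -0.36 to 0.74, adjusted p = 0.846). It fell to 0.0072 without vehicle replicate 1 and to 0.026 without CNO replicate 4. Without CNO replicate 2 or vehicle replicate 3 it rose to 0.354 and 0.345, so the value depended on single samples of both groups.

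Of the 7 members, 0 were called (adjusted p under 0.05, change above 1.5-fold and mean TPM above 1), where 0% of all genes tested were called by the same test. *Fos*, the check of activation, was not called by it either, at a log2 fold change of 1.93 ± 0.22 (SE, adjusted p = 0.0520). At an unadjusted p under 0.05, 0 of 7 members and 4.09% of all genes passed, and the groups did not overlap in CPM for 0 of 7 members and for 2.42% of all genes. By edgeR's likelihood ratio test with robust dispersion and by DESeq2's Wald test, 12 and 10 genes were called, or 0.0686% and 0.0572% of those tested, and the adjusted p of the members ranged from 0.842 to 0.928 in these 2 tests. Estimates were higher with CNO for 4 members and lower for 3, with a median log2 fold change of 0.067 beside 0.0014 for all genes tested. For 5 of the 7, the 95% interval lay within a change of 1.5-fold either way. The intervals of *Scn2a*, down to -0.59, and of *Scn4b*, up to 0.74, did not. Counting error, computed as if reads were independent, was 1.14% to 3.04% of a member's level. Samples of 1 group varied by 4.08% to 30.2% (coefficient of variation). Amplified reads are not independent molecules, so the counting error may be larger than computed, and the part of depth was not tested.

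**Figure D2:**
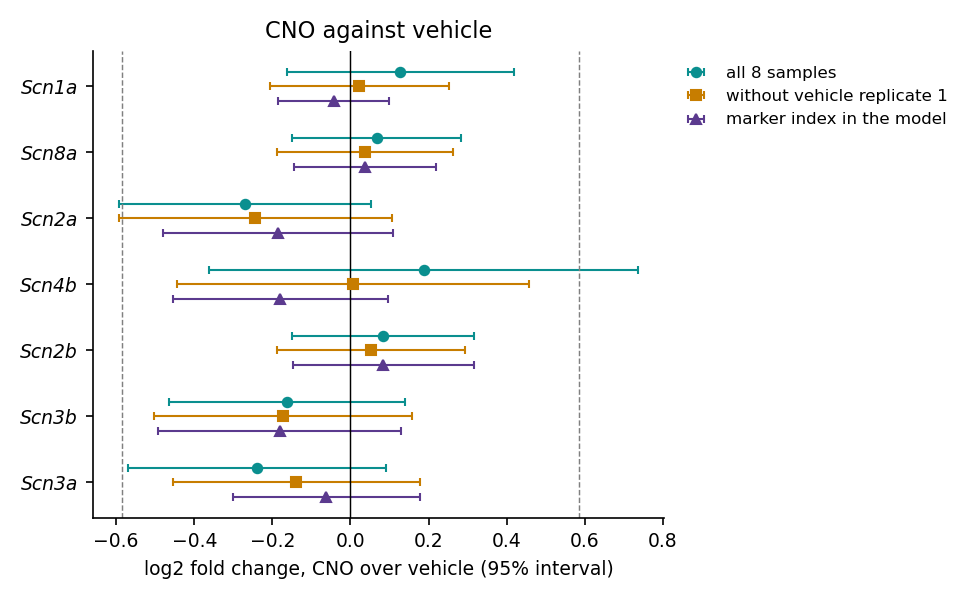
Log2 fold change of CNO over vehicle for each subunit (horizontal axis, bars are 95% intervals), from all 8 samples (circles), without vehicle replicate 1 (squares) and with the marker index as a covariate (triangles), with dashed lines at 1.5-fold. Every interval crosses 0, and the estimates of *Scn1a* and *Scn4b* pass from 0.13 and 0.19 to -0.043 and -0.18 once the index is a covariate.

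The balance among subunits was asked from their shares of summed TPM, which do not depend on library size. *Scn1a* made up 44.4%, 39.3%, 43.1% and 48.4% of the 4 pore-forming genes in the CNO samples and 31.5%, 43.0%, 42.9% and 39.9% in the vehicle samples. *Scn2a* made up 23.7%, 27.8%, 24.6% and 18.9% with CNO and 34.6%, 26.3%, 28.5% and 27.8% with vehicle. Vehicle replicate 1 held the lowest share of *Scn1a* and the highest of *Scn2a*, and the groups overlapped for both.

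The *Scn2a* share averaged 23.8% ± 3.66 in the CNO group and 29.3% ± 3.62 in the vehicle group (SD over 4 samples), a difference of -5.56 percentage points (two-sided exact permutation test, p = 0.0571, adjusted over the 9 values tested p = 0.429). Without vehicle replicate 1 the difference was -3.80 (exact p = 0.114). The *Scn1a* share was 43.8% ± 3.73 and 39.3% ± 5.39, a difference of 4.49 (exact p = 0.229, adjusted p = 0.514), which fell to 1.90 without that sample, over 1.5 times less. *Scn8a* held 29.3% ± 0.910 and 27.7% ± 1.67 (exact p = 0.143, adjusted p = 0.429), and *Scn3a* 3.13% ± 0.625 and 3.63% ± 0.672 (exact p = 0.343, adjusted p = 0.514).

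Among the 3 auxiliary genes, *Scn4b* held 55.2% ± 8.86 of the sum in CNO samples and 51.6% ± 8.05 in vehicle samples (exact p = 0.543, adjusted p = 0.611). *Scn2b* held 23.7% in both groups (exact p = 1), and *Scn3b* 21.1% ± 3.89 and 24.7% ± 4.90 (exact p = 0.314, adjusted p = 0.514). *Scn1a* over *Scn2a* was 0.89 ± 0.35 with CNO and 0.42 ± 0.38 with vehicle on the log2 TPM scale (exact p = 0.114, adjusted p = 0.429), and the ratio ranged from 0.912 to 2.55 over the samples. The auxiliary sum over the pore-forming sum was -1.06 ± 0.30 and -1.23 ± 0.27 on the log2 scale (exact p = 0.429, adjusted p = 0.551). Without vehicle replicate 1, the difference between groups fell from 0.47 to 0.29 for *Scn1a* over *Scn2a* and from 0.17 to 0.049 for the auxiliary over the pore-forming sum, both on the log2 scale. In percentage points it went from -0.508 to -0.200 for the *Scn3a* share, from -3.56 to -1.14 for *Scn3b* and from 3.58 to -0.138 for *Scn4b*. Groups were apart for 0 of these 9 values, and with 4 against 4 samples the smallest p this test can give is 0.0286.

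**Figure D3:**
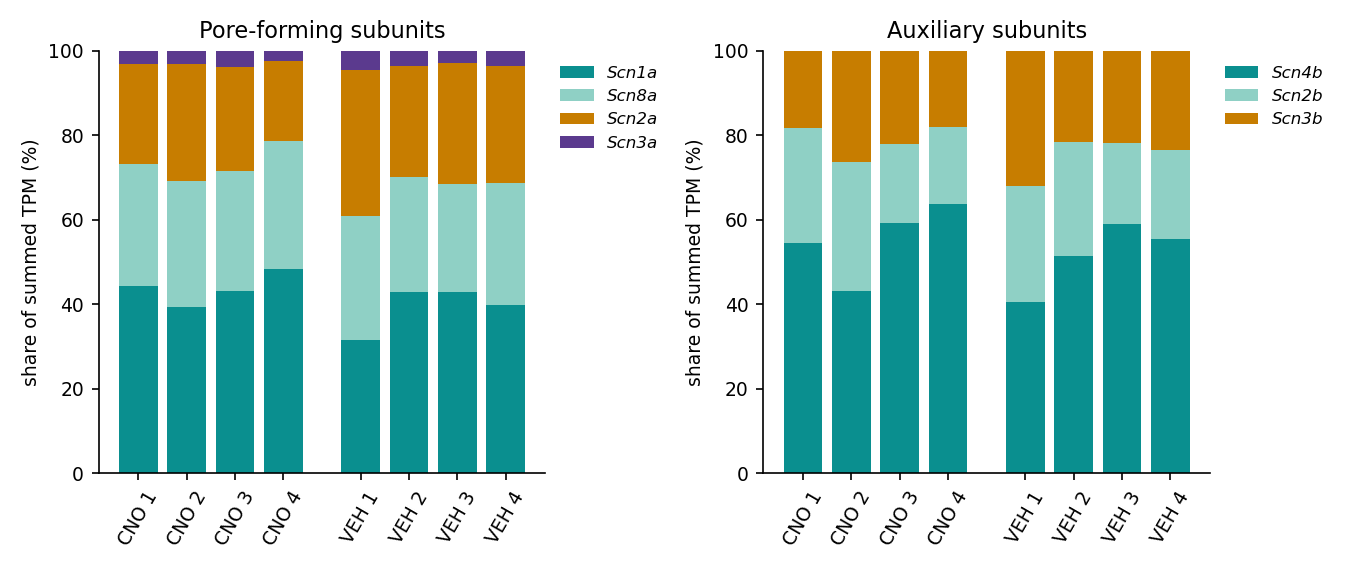
Share of each gene in the summed TPM of the 4 pore-forming (left) and 3 auxiliary subunits (right), in percent, with 1 stacked bar for each CNO and vehicle (VEH) sample. The *Scn1a* segment is shortest in vehicle replicate 1 (31.5%) and tallest in CNO replicate 4 (48.4%), and *Scn8a* keeps a nearly even share.

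The members differed in how their log2 CPM varied with the marker index over the 8 samples. No test against the index had been planned. *Scn1a* followed it most closely (Pearson's r = 0.976, exact permutation p = 0.000198, adjusted over 7 members p = 0.00139; Spearman's rho = 0.929, exact permutation p = 0.00223). In TPM, *Scn1a* was highest in CNO replicate 2 (82.8), where the index was 0.81, and had 80.4 in CNO replicate 4, where it was 1.95. Its relation to the index in TPM was not tested. Leaving out the samples farthest from the median index, vehicle replicate 1 and CNO replicate 4, r in log2 CPM was 0.918. Within groups (after removing group means) it was 0.979. *Scn4b* rose with the index as well (r = 0.898, exact permutation p = 0.000645, adjusted p = 0.00226; rho = 0.857, exact permutation p = 0.0107), with r = 0.807 without those samples and 0.916 within groups.

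*Scn3a* ran the other way (r = -0.855, exact permutation p = 0.0146, adjusted p = 0.0340; rho = -0.905, exact permutation p = 0.00456). Its r was -0.813 within groups. It was -0.463 without vehicle replicate 1 and CNO replicate 4, so much of its strength rests on them. *Scn2a* had r = -0.592 (exact permutation p = 0.116, adjusted p = 0.203; rho = -0.619, exact permutation p = 0.115), and -0.231 without those samples. *Scn8a* (r = 0.434, rho = 0.238), *Scn2b* (r = 0.127, rho = 0.071) and *Scn3b* (r = -0.117, rho = -0.048) had exact permutation p between 0.287 and 0.935 for both measures (adjusted p from 0.402).

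Adding the index as a covariate gave log2 fold changes of -0.043 for *Scn1a*, -0.19 for *Scn2a*, -0.061 for *Scn3a*, 0.037 for *Scn8a*, 0.084 for *Scn2b*, -0.18 for *Scn3b* and -0.18 for *Scn4b*. None passed the test. The sign of *Scn1a* and *Scn4b* thus turned. With 1 surrogate variable in its place the values were -0.033 and -0.19. That variable had r = -0.990 with the index over the samples, so it made nearly the same adjustment and is not a separate check. The index overlapped between the groups (exact permutation p = 0.257), and members and markers come from the same libraries. Its part in the members' values beyond these measurements was not tested.

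**Figure D4:**
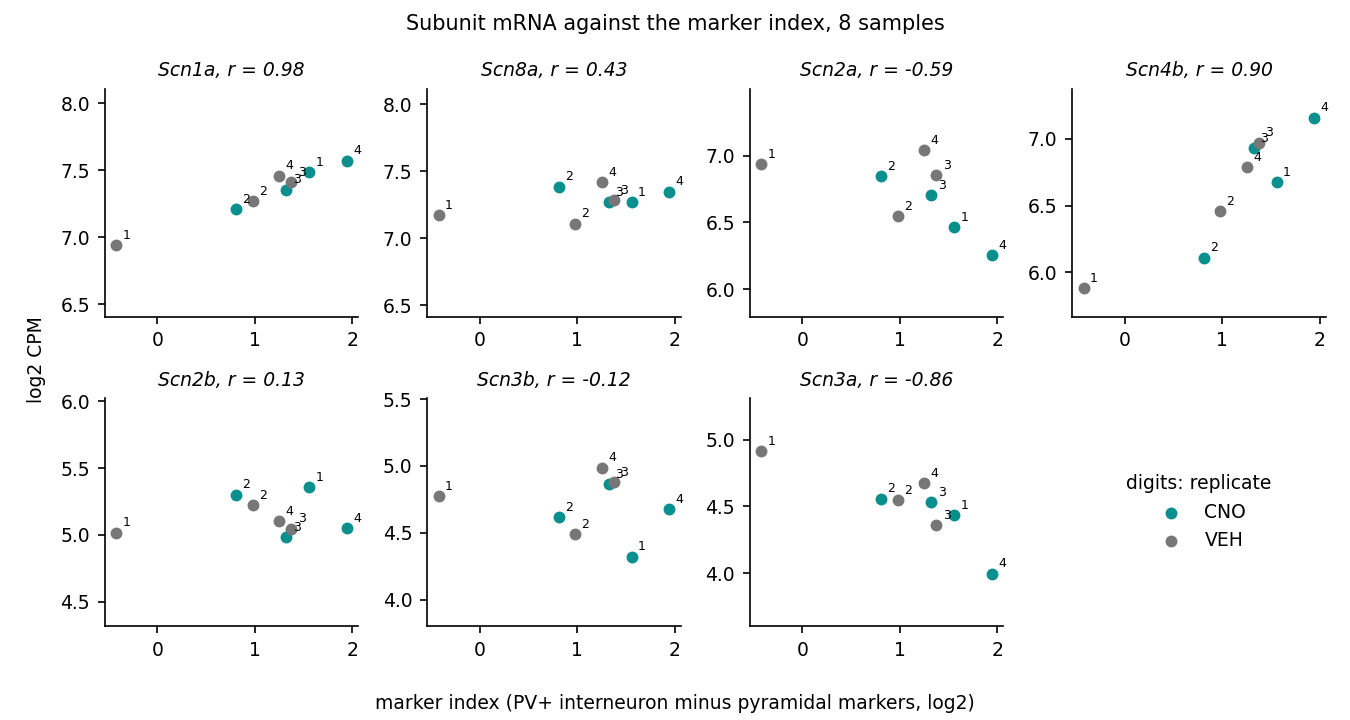
Log2 CPM of each subunit (vertical axes, all of equal length) against the marker index (horizontal axis, PV+ interneuron minus pyramidal markers, log2), with CNO samples in teal, vehicle samples in grey and replicate numbers beside the points. *Scn1a* and *Scn4b* climb with the index (r = 0.98 and 0.90), *Scn3a* declines (r = -0.86), and r lies between -0.59 and 0.43 in the other 4 panels.

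As a description over the same 8 libraries, *Scn1a* and *Scn4b* varied together (r = 0.902, and 0.820 without vehicle replicate 1), as did *Scn2a* and *Scn3a* (0.770 and 0.755). *Scn2b* and *Scn3b* varied in opposite directions (-0.802 and -0.811). Genes most like each member in log2 CPM, among 15166 candidates, were *Spock3* (r = 0.996), *Slc38a2* (0.992) and *Impad1* (0.991) for *Scn1a*, and the gene ENSMUSG00000105230 (0.991), *Gabrb2* (0.989) and *Aplp2* (0.988) for *Scn4b*. For *Scn2a* they were *Atp8a1* (0.972) and *Dgkz* (0.970), and for *Scn3a* *Herc4* (0.986), *C920006O11Rik* (0.986) and *St6gal2* (0.977). *Scn8a* was most like *Snx13* (0.976), *Sipa1l3* (0.958) and *Eif4g1* (0.956), *Scn2b* like *Bhlhe22* (0.970), *Hhipl1* (0.962) and *Nuak1* (0.955), and *Scn3b* like *Cluh* (0.967), *Grm5* (0.953) and *Mgat4a* (0.948).

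Among other sodium channel genes, *Scn9a* (log2 fold change -0.43 ± 0.23, SE) and *Scn7a* (-0.12 ± 0.26) were tested and not called (adjusted p = 0.817 and 0.902), while *Scn4a*, *Scn10a* and *Scn11a* did not pass the filter on low counts.

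Proteins that bind, anchor or regulate the channels were read from 3 further lists, in which 0 genes were called, beside 0% of all genes tested. All 4 FGF homologous factors, which bind the channel's tail, were tested, 2 higher and 2 lower in estimate, with a median log2 fold change of 0.17: *Fgf12* at 0.44 ± 0.26 (SE), *Fgf11* at 0.40 ± 0.23 and *Fgf13* at -0.13 ± 0.085. The 7 genes that anchor channels at the axon initial segment had 3 higher and 4 lower estimates and a median of -0.032, among them the spectrin gene *Sptbn4* at 0.17 ± 0.14, the adhesion molecule gene *Nrcam* at -0.14 ± 0.098 and *Trim46*, which organizes microtubules there, at -0.13 ± 0.088. The 11 regulators had 7 higher and 4 lower estimates and a median of 0.12, among them the splicing factor gene *Nova2* at 0.30 ± 0.15, the calmodulin gene *Calm3* at 0.35 ± 0.21 and *Tnr*, for the matrix protein tenascin-R, at -0.18 ± 0.13. At an unadjusted p under 0.05, 0 of these 22 genes passed, beside 4.09% of all genes tested.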

How the data were processed

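Ribosome-associated mRNA was pulled down with anti-HA beads and sequenced paired-end after SMARTer Ultra Low amplification, which does not mark strand. The authors used Trim Galore for trimming, STAR for alignment (GRCm38), and Salmon and tximport for quantification, with versions of these tools not given in the sources used here. They deposited estimated counts per gene, neither normalized nor filtered, and TPM. Counts were rounded and tested in R 4.3.3 with edgeR 4.0.16 (TMM, group as the only term, quasi-likelihood test). A gene was dropped if 4 or more samples had fewer than 10 counts of it. The authors name edgeR's estimateGLMRobustDisp and a two-sided Wald test, a test not found in edgeR, so the likelihood ratio test with that dispersion and DESeq2 1.42.0's Wald test were alternatives. Further alternatives changed normalization, filter, unit, covariates (with sva 3.50.0) and replicates. limma 3.58.1 was applied to log2 TPM. Log2 CPM used a prior count of 2, and order tests log2(TPM + 0.1). Standard errors came from the fitted coefficients. The tests were tried on simulated data. Of 45706 gene identifiers, 45143 are in the GENCODE M21 annotation used for positions and shared sequence. The members and lists were chosen with earlier results of these data known. Named genes are the members, other sodium channel genes, up to 3 genes of smallest p per list, the 3 genes most like each member, and *Fos* and *Pvalb* as checks of activation and of the pulldown. Some items that this rule selects are not reported here.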

Additional observations from a re-analysis of the deposited data

Results flagged for a closer look

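Of 48 groups of 4 samples examined for a single distant sample, 2 were picked out, where chance gives 2.4 (5%). The mean PV+ interneuron marker level of vehicle replicate 1, 5.69 log2 CPM, lay far below the other vehicle samples at 7.02 to 7.23 (gap over range 0.863). This is the sample with the lowest *Scn1a* and *Scn4b* and the highest *Scn3a*. The markers of other interneurons were higher in CNO replicate 3, at 3.68 log2 CPM, than in the other CNO samples at 3.41 to 3.45 (gap over range 0.855). No member had a single distant sample in either group.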

How the results depend on the processing

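The limits are 4 pools per group, paralogues that share sequence, no strand information and 1 vehicle sample poor in PV+ markers. Over 140 alternative values of the members' log2 fold changes, 134 kept direction and none passed the threshold, with adjusted p from 0.472 to 1.00. The 6 that reversed were *Scn1a* (-0.043 with the marker index, -0.033 with 1 surrogate variable), *Scn4b* (-0.18 and -0.19) and *Scn8a* (-0.059 in limma on log2 TPM with 1 added and -0.060 with 0.1 added). The surrogate variable nearly repeated the index (r = -0.990). Leaving out single samples gave 0.023 to 0.19 for *Scn1a*, -0.37 to -0.18 for *Scn2a*, -0.32 to -0.14 for *Scn3a*, 0.013 to 0.13 for *Scn8a*, 0.019 to 0.14 for *Scn2b*, -0.26 to -0.072 for *Scn3b* and 0.0072 to 0.35 for *Scn4b*. Scaling by library size alone shifted the median of all genes to -0.051, and log2 TPM to -0.063 and -0.077. Genes called over the whole table numbered 0 in the main test (716 at an unadjusted p under 0.05), 12 by the likelihood ratio test, 10 by DESeq2, 4 with no filter on low counts and 2 without CNO replicate 1, a range of 0 to 2 when single samples were left out. The cause was not tested.

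Of 90 alternative share differences, 85 kept direction. With shares of raw counts, the *Scn8a* share reached the smallest p the exact permutation test can give. Its difference was 1.75 percentage points (exact permutation p = 0.0286, adjusted p = 0.257). Leaving out single samples moved the *Scn2b* share difference between -2.34 and 1.78 and reversed it without CNO replicate 3 (1.64), CNO replicate 4 (1.78), vehicle replicate 1 (1.28) or vehicle replicate 2 (1.07). The *Scn4b* share difference ran from -0.138, without vehicle replicate 1, to 7.60. In the order of levels, log2 CPM not divided by length gave 0.056 for *Scn1a* over *Scn8a* and 0.20 for *Scn3b* over *Scn3a*, neither past the threshold, and 0.58 for *Scn8a* over *Scn2a* and 0.43 for *Scn2b* over *Scn3b*, both past it, because it ranks longer transcripts higher. Leaving out single samples gave -0.041 to 0.29 for *Scn2a* over *Scn4b*, reversed without vehicle replicate 1, and -0.030 to 0.085 for *Scn2b* over *Scn3b*, reversed without CNO replicate 1.

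Deviations of same-numbered samples from their group means had correlations of 0.026, -0.030, 0.16 and 0.24. Whether these samples share more than a number was not tested beyond this. With the replicate block 0 genes were called (765 at an unadjusted p under 0.05), and 1 of 4 CNO samples lay closest to its own number.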
